A study of Mus musculus with 27 samples.

Results

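Small nucleolar RNA (snoRNA) genes were described in mouse ovary. Members were selected on summed raw counts: the genes whose GENCODE M21 symbol starts with Snora or Snord, whose annotated biotype is snoRNA and whose raw counts summed to at least 50 over the 27 libraries were kept. Of 140 such genes in the table, 69 passed, 28 with a Snora and 41 with a Snord symbol, out of 51789 gene rows in all. Of the others, 26 had no count and 45 had 1 to 49 counts. The members nearest the limit were Snord23 with 51 and Snora64 with 53 counts inside it, and Snord37 with 49 and Snora31 with 48 counts outside it. Because the sum over all libraries chose the members, a low-count member could enter through the group in which it was high, so counts over members are given as descriptions.

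RNA came from mouse ovary, as polyA RNA made into 3′ tag libraries. Experiment 1 had young untreated (n = 5), aged untreated (n = 4) and aged TRi-1-treated mice (n = 4). Experiment 2 had young untreated (n = 5), aged untreated (n = 5) and aged auranofin-treated mice (n = 4). TRi-1 and auranofin, a gold compound, are inhibitors of thioredoxin reductase. The labels used here give no strain, age in weeks, dose or duration, and name no genetic change in any group. The untreated mice carry the label control, with no vehicle named.

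A snoRNA guides chemical marks onto other RNAs, mostly ribosomal RNA in the nucleolus, or takes part in cutting the ribosomal precursor. Snord genes encode box C/D snoRNAs, which guide 2′-O-methylation with the methyltransferase fibrillarin, and Snora genes encode box H/ACA snoRNAs, which guide pseudouridylation with dyskerin. In mammals most are cut out of introns of host genes, many of which encode ribosomal proteins or are non-coding Snhg genes, whereas U13 (Snord13) and U8 (Snord118) have promoters of their own. Growing oocytes have large nucleoli and store ribosomes. Mature snoRNAs normally carry no polyA tail, so a 3′ tag library captures only some of their molecules or precursors, and the levels below are those of the captured RNA.

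Library totals ran from 6460903 to 14814381 counts. Members are compared between groups as CPM, read counts scaled to a common library size, on TMM library sizes. Defining ovary markers were present: the summed CPM of 8 oocyte markers was 202 ± 43.2 (SD, n = 5) in young and 5.53 ± 3.34 (n = 4) in aged mice of experiment 1, and 58.8 ± 45.8 (n = 5) and 5.05 ± 2.78 (n = 5) in experiment 2. Sums of immune cell markers were higher and those of granulosa cell markers lower in aged than in young mice: in experiment 1 the means for young and aged were 18.5 ± 5.20 and 743 ± 113 for B and plasma cells, 355 ± 123 and 2619 ± 990 for macrophages and 360 ± 127 and 51.5 ± 42.5 for granulosa cells. In experiment 2 they were 27.1 ± 12.3 and 723 ± 211, 412 ± 200 and 1815 ± 526, and 195 ± 91.1 and 90.1 ± 82.6, the granulosa cell sums with overlap. Mean sums of neutrophil, T cell and red cell markers were also higher, and those of steroid cell and proliferation markers lower, in aged mice of both experiments. Their part in the results was not tested. In bulk tissue, fewer cells of a type and less RNA per cell cannot be told apart. A few libraries stood apart. Experiment 2 young replicate 3 had an oocyte marker sum of 3.52, against 39.0 to 127 in the other 4 young libraries of that experiment, and a steroid cell marker sum of 15.9 against 1420 to 3041. Experiment 1 aged replicate 1, auranofin replicate 4 and young replicate 3 of experiment 1 had the highest member sums of their groups.

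The sequences of 5 members the results turn on, from the GENCODE M21 transcripts (GRCm38, mm10), are shown 5′ to 3′ with the boxes that define each family in capitals. In Snord genes the capitals mark the first C box (TGATGA) and the last D box (CTGA) within the final 15 bases, and in Snora genes ACA 3 bases before the 3′ end.
Snord118: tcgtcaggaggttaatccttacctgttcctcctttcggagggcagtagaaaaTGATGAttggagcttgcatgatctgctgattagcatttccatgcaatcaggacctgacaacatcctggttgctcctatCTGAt
Snord89: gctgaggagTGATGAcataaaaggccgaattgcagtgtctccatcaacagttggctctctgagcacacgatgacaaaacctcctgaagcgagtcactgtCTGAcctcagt
Snora81: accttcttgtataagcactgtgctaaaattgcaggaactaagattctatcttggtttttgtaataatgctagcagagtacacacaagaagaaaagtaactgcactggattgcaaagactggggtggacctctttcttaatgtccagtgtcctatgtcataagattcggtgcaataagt
Snora30: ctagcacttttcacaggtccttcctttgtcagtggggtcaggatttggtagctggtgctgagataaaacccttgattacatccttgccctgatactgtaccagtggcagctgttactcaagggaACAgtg
Snora47: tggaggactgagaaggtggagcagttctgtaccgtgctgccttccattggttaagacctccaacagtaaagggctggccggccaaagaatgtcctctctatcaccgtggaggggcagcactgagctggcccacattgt
Snord118 is shown as an abundant member with a promoter of its own, Snord89, Snora81 and Snora30 as members lower with age in both experiments, and Snora47 for its host gene.

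The C box TGATGA stood in 32 of 41 Snord members (78.1%) and in 42 of 57 Snord genes under 50 counts (73.7%). A D box CTGA in the last 15 bases stood in 39 of 41 members (95.1%) and in 53 of 57 of the others (93.0%). On the reverse strand the C box was found in 0 and the D box in 2 of the 41 Snord members. ACA 3 bases before the 3′ end was present in 22 of 28 Snora members (78.6%), on the reverse strand in 0, and in 13 of 14 Snora genes under 50 counts (92.9%). The annotated ends of Snora81 and Snora47 do not have it. The longest run of A, the letter an oligo-dT primer would pair with, had a median of 3 bases in Snord members and 4 in Snord genes under 50 counts, and of 4 and 3 bases in the Snora sets. The C and D boxes can overlap only at the shared letters TGA. These shares are a description, with no test.

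Snord13, U13, which takes part in processing of 18S ribosomal RNA, gave 86.7% of the 643232 member counts, and with Snord118 and Snord89 the share was 93.9%. The median member had 216 counts over all 27 libraries. The CPM of Snord13 was 3345, 6349, 9356, 5755 and 2513 in young and 6468, 2421, 1627 and 1485 in aged mice of experiment 1. Replicate 1 of the aged group lay within the young range and the other 3 aged libraries lay below it. In experiment 2 the CPM was 987, 3151, 1801, 1355 and 2340 in young and 268, 1057, 316, 971 and 864 in aged mice. The 2 groups overlapped only through the lowest young library, replicate 1. The log2 fold change of aged over young was -0.88 ± 0.42 (SE; edgeR adjusted p = 0.119) in experiment 1 and -1.49 ± 0.57 (adjusted p = 0.12) in experiment 2, neither past the threshold of 0.05. In experiment 2 Snord13 did pass with only the 2 groups compared in the fit (adjusted p = 0.04), with the replicate block (0.0492) and by DESeq2 (0.0396). Over both experiments in 1 fit, Snord13 fell by 1.18 ± 0.39 on the log2 scale (adjusted p = 0.0192). Without aged replicate 1 the change in experiment 1 was -1.56, with an edgeR adjusted p of 0.0043. Without young replicate 3 it was -0.57. With each library left out in turn, Snord13 did not pass in 8 of 9 fits of experiment 1 and 10 of 10 of experiment 2. It passed in 19 of 19 joint fits.

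Snord118, U8, needed for maturation of 5.8S and 28S ribosomal RNA, lies at chr11:69073427-69073561. Its CPM was 110, 428, 491, 277 and 120 in young and 269, 93.7, 59.4 and 63.7 in aged mice of experiment 1. It was 86.9, 116, 155, 164 and 195 in young and 21.8, 100.2, 19.4, 63.7 and 39.1 in aged mice of experiment 2. Again 1 aged library in each experiment, replicate 1 and replicate 2 in turn, reached into the young range. The log2 fold changes of -1.25 ± 0.49 (adjusted p = 0.059) and -1.56 ± 0.55 (adjusted p = 0.0894) did not pass the edgeR test, and the joint one of -1.40 ± 0.40 did (adjusted p = 0.00785). Without those aged libraries the values were -1.98 (adjusted p = 0.0041) and -2.02 (adjusted p = 0.042). The weakest were -0.94 without young replicate 3 in experiment 1 and -1.36 without aged replicate 3 in experiment 2. With each library left out in turn, 6 of 9 fits of experiment 1 and 9 of 10 of experiment 2 did not pass. All 19 joint fits did. Snord118 also passed in experiment 2 with only the 2 groups compared in the fit (adjusted p = 0.0288) and by DESeq2 (0.025), and in experiment 1 without young replicate 1 (-1.50, adjusted p = 0.024) or young replicate 5 (-1.45, adjusted p = 0.0334).

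Summed over the 41 Snord members, almost all of it Snord13, the CPM was 6222 ± 3139 (SD, n = 5) in young and 3222 ± 2496 (n = 4) in aged mice of experiment 1, and 2257 ± 999.9 (n = 5) and 783 ± 418 (n = 5) in experiment 2. The summed CPM of the 28 Snora members was 217 ± 73.1 and 60.6 ± 26.6 in experiment 1, and 72.2 ± 31.9 and 16.6 ± 4.20 in experiment 2. The Snora sums of young and aged libraries did not overlap in either experiment, with the lowest young library at 164 against the highest aged one at 98.3, and at 46.8 against 23.4. The Snord sums overlapped in experiment 1 through aged replicate 1, at 6910. In experiment 2 they lay close, with 1215 in the lowest young library and 1195 in the highest aged one. No test was made on these sums.

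**Figure D1:**
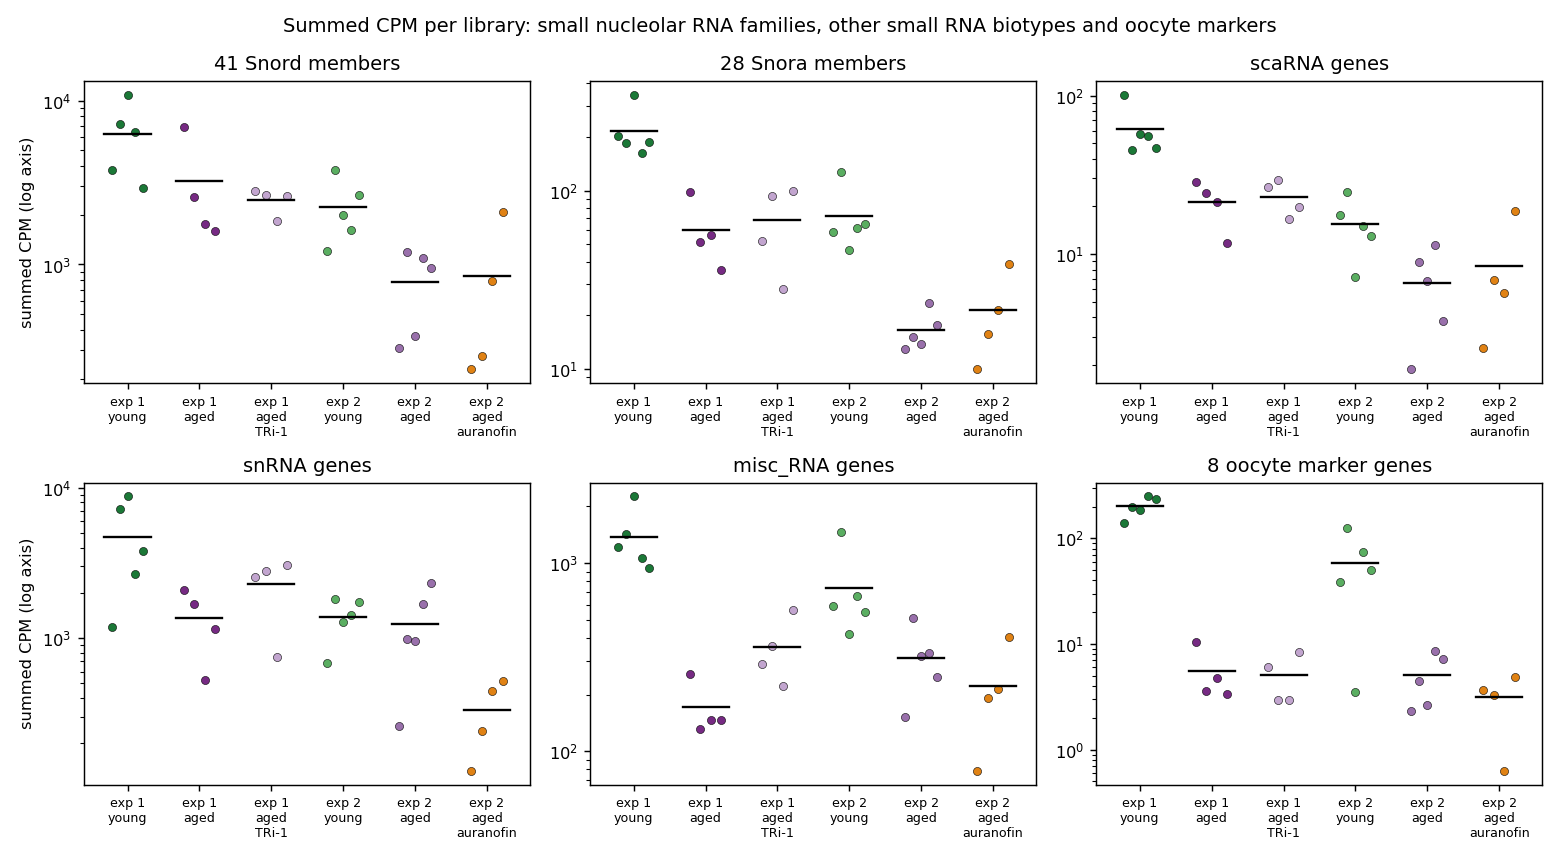
Summed CPM per library on log axes for the Snord and Snora members, 3 other small RNA biotypes and 8 oocyte markers, with 1 point per library and a line at each group mean. The Snora sums of young libraries lie above those of aged libraries in both experiments. The scaRNA, snRNA and misc_RNA sums of experiment 2 overlap between the age groups.

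The sums of other small RNA biotypes are given beside the members, with no test on them, and their part in the result was not tested. In experiment 1, young against aged (mean ± SD), the summed CPM was 61.1 ± 22.9 and 21.5 ± 7.09 for small Cajal body RNAs (scaRNA), 4738 ± 3173 and 1364 ± 675 for spliceosomal snRNAs, 741 ± 210 and 125 ± 83.1 for miRNA genes and 1381 ± 522 and 171 ± 58.9 for misc_RNA genes. In experiment 2 it was 15.5 ± 6.48 and 6.56 ± 3.84 for scaRNAs, 1392 ± 453 and 1243 ± 789 for snRNAs, 587 ± 329 and 497 ± 420 for miRNA genes and 736 ± 415 and 311 ± 131 for misc_RNA genes. The sums of each of these biotypes overlapped between the age groups in experiment 2, and the snRNA sums did so in experiment 1. By gene, 44.7% of the 94 snoRNA genes tested, members included, were lower with age in experiment 1, as were 41.5% of 41 snRNA genes and 71.4% of 14 miRNA genes, against 15.7% of 14131 protein-coding genes. In experiment 2 the shares were 9.72% of 72 snoRNA, 2.38% of 42 snRNA and 14.3% of 14 miRNA genes, against 4.74% of 14269 protein-coding genes. The median log2 fold change of snoRNA genes was -1.77 and -1.51 in the 2 experiments and that of snRNA genes -1.82 and 0.47. That of scaRNA genes was -1.46 and -0.80, of miRNA genes -2.54 and -0.37 and of misc_RNA genes -1.64 and -0.64. Lower with age in experiment 1 were 25% of 8 scaRNA and 53.3% of 15 misc_RNA genes. In experiment 2 the shares were 0% of 4 and 7.14% of 14.

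With age, members were lower or did not pass the test. In experiment 1 edgeR could test 44 members, and 19 were lower and 0 higher, where 16.4% of the 16028 genes tested were lower and 18.5% higher. The unadjusted edgeR p was under 0.05 for 27 lower members and 1 higher. DESeq2, which tested 68 members, called 29 lower and 0 higher. In experiment 2 edgeR tested 38, and 4 were lower and 0 higher, where 4.59% of 16309 genes were lower and 5.86% higher. There the unadjusted edgeR p was under 0.05 for 11 lower and 0 higher members. DESeq2 called 9 lower and 0 higher of 65 tested. In the joint fit 28 of 53 were lower and 0 higher, against 17.8% lower and 17.5% higher of 17484 genes. DESeq2 called 33 lower and 0 higher there, again with more members tested than by edgeR. The unadjusted and DESeq2 counts have no share over all genes beside them. In the main edgeR fits 16 members were never tested. The count in experiment 1 rested on single libraries: it was 9 without young replicate 3 and 28 without aged replicate 1.

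The median log2 fold change of tested members was -2.23 in experiment 1, -1.48 in experiment 2 and -2.03 in the joint fit, where all genes had medians of 0.02, -0.03 and -0.03. The families are given side by side, with no test between them. In experiment 1 11 of 16 Snora and 8 of 28 Snord members tested were lower, with medians of -2.73 and -0.96. In experiment 2 it was 3 of 14 Snora and 1 of 24 Snord members, with medians of -2.16 and -1.11. No tested Snora member had a positive fold change in either experiment, while 6 of 28 and 3 of 24 Snord members did. Groups did not overlap, with aged libraries all below young ones, for 13 of 44 tested members in experiment 1, against 13.4% of genes. In experiment 2 this held for 4 of 38 tested members, against 4.62% of genes. The reverse order held for 0 members in either, against 14.2% and 6.57% of genes.

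**Figure D2:**
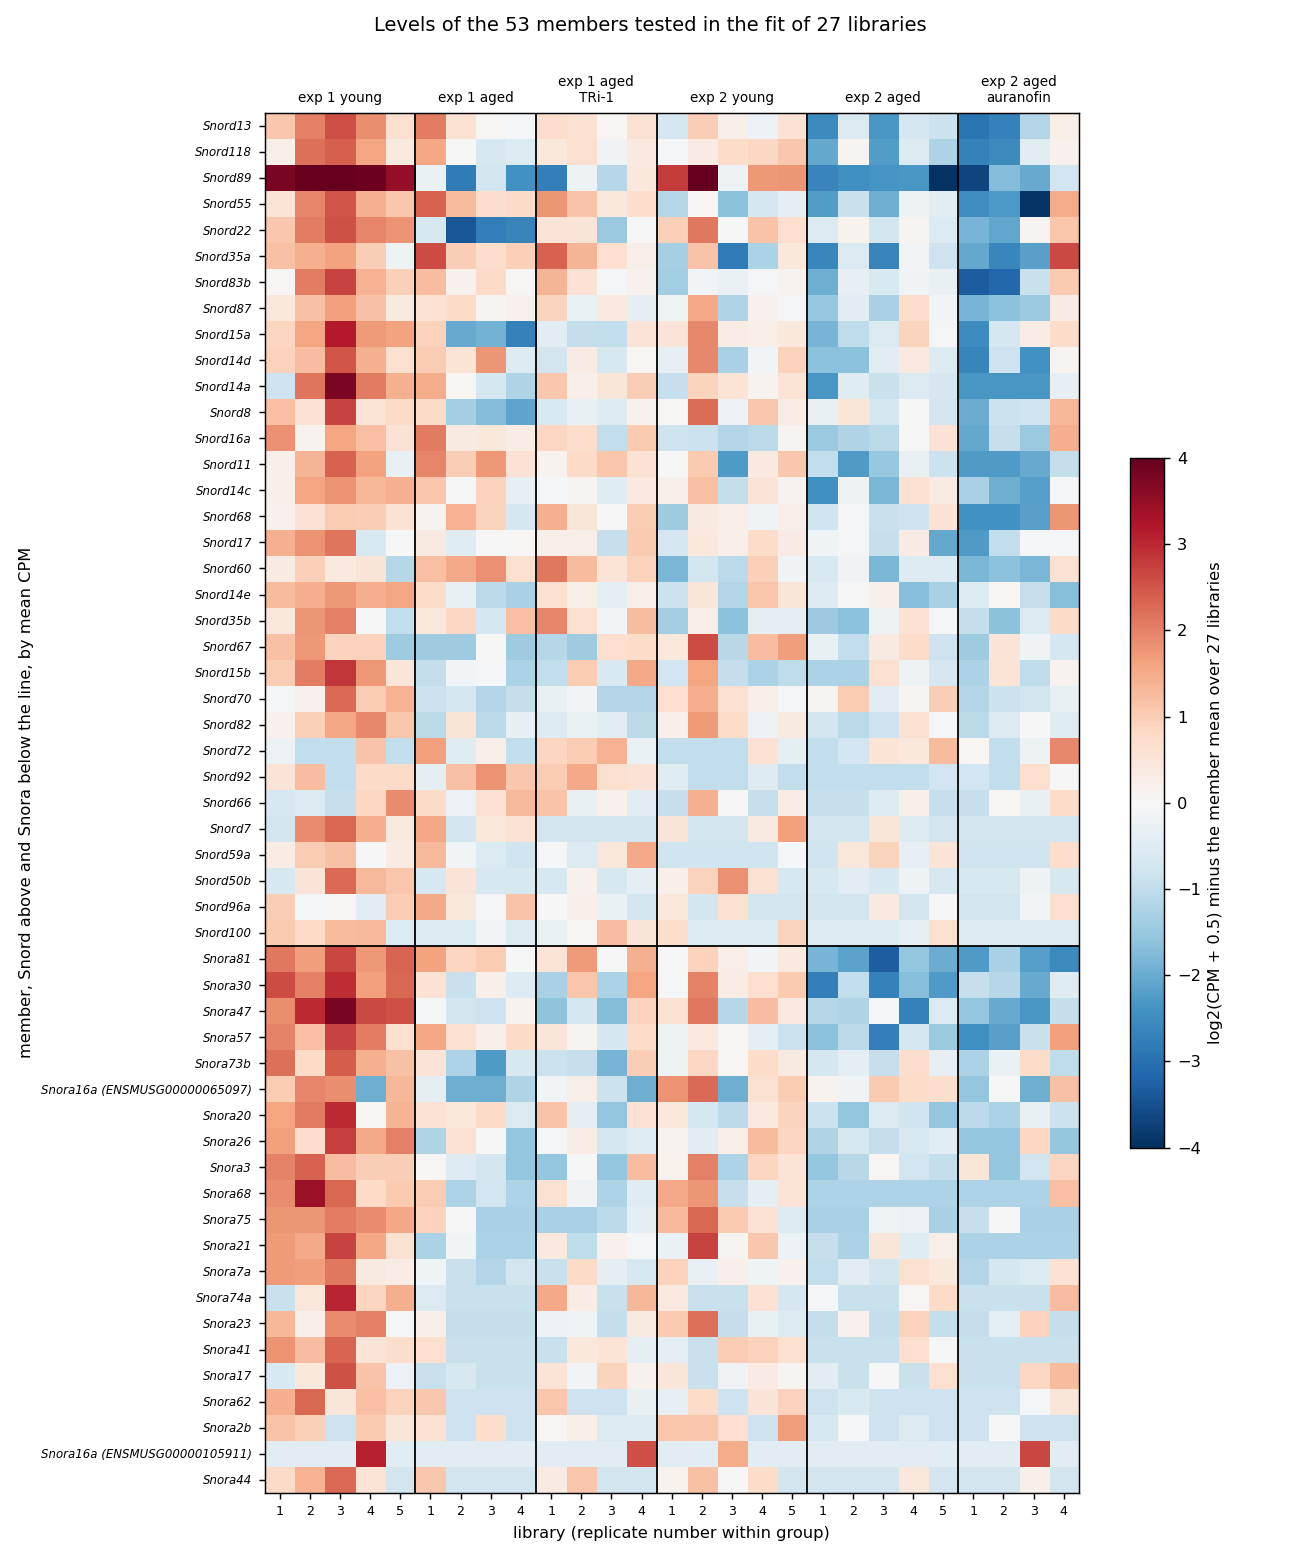
Level of each of the 53 members tested over 27 libraries, as log2(CPM + 0.5) minus the member's mean, with libraries in columns by group and Snord members above and Snora members below the line. Red marks levels above the member's mean; the 5 young libraries of experiment 1 are mostly red, and auranofin replicate 4 differs from the other 3 libraries of its group in many Snord rows.

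Snord89 had the lowest joint fold change. This box C/D gene lies at chr1:39548745-39548854 on the minus strand, in an intron of Gm15832. In experiment 1 its CPM was 196, 246, 665, 211 and 161 in young mice. In aged mice it was 11.1, 1.53, 7.86 and 2.09, so that the lowest young library stood far above the highest aged one. Experiment 2 had 96.2, 365, 11.7, 46.3 and 47.3 in young and 1.76, 2.03, 2.22, 2.26 and 0.411 in aged mice. The groups again did not overlap. The log2 fold change was -5.75 ± 0.77 (edgeR adjusted p = 4.43e-05) and -6.06 ± 0.92 (adjusted p = 0.000808), and the difference between experiments of -0.29 ± 1.05 did not pass the test (adjusted p = 0.949). Leaving out each library in turn gave -6.28 to -5.18 and -6.35 to -4.88.

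Snord89 was lowest among young mice of experiment 2 in replicate 3, the library with the oocyte marker sum of 3.52, and highest in replicate 2, whose oocyte sum of 127 was the highest. In order of replicate, that group's oocyte sums were 39.0, 127, 3.52, 74.5 and 50.2. In replicates 1, 4 and 5 Snord89 had 96.2, 46.3 and 47.3 CPM, the reverse of the order of their oocyte sums. Replicate 3 was also the lowest of the group for granulosa cell markers, at 40.4, and for steroid cell markers, at 15.9. In experiment 1 the highest Snord89 library, replicate 3, had an oocyte sum of 186, inside the range of 140 to 249.7 of its group. The part of these cell types in the fall of Snord89 was not tested.

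Snora81, an H/ACA member at chr16:23110756-23110933 that overlaps an annotated exon of Eif4a2, had CPM of 81.6, 60.8, 120.6, 63.2 and 94.5 in young and 57.6, 34.3, 37.9 and 18.6 in aged mice of experiment 1. In experiment 2 it had 18.6, 35.4, 22.5, 17.2 and 24.7 in young and 4.75, 3.80, 1.45, 6.05 and 4.35 in aged mice. All aged libraries lay below all young ones, by a narrow margin in experiment 1. The log2 fold change was -1.19 ± 0.36 (adjusted p = 0.018) and -2.54 ± 0.39 (adjusted p = 0.000809). Without aged replicate 4 the first was -0.97 with an adjusted p of 0.058. In experiment 2 young replicate 3, low in oocyte, granulosa and steroid cell markers, had 22.5 CPM, near the middle of its group. The part of these cell types in the level of Snora81 was not tested.

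Snora30, an H/ACA member at chr7:127527874-127528003, lies within Gm42715 and Srcap. Its CPM was 36.1, 23.8, 45.4, 18.1 and 28.8 in young and 8.36, 2.75, 6.46 and 3.68 in aged mice of experiment 1. It was 5.23, 23.3, 6.81, 9.03 and 11.8 in young and 0.390, 2.54, 0.426, 1.35 and 0.739 in aged mice of experiment 2. The groups did not overlap in either experiment. Snora30 fell by 2.53 ± 0.59 (adjusted p = 0.00348) and by 3.38 ± 0.60 (adjusted p = 0.00223) on the log2 scale, and passed the test without each library in turn.

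Snora68, an H/ACA member, had few counts. Its counts were 34, 80, 29, 13 and 13 in young and 15, 0, 2 and 0 in aged mice of experiment 1, and 28, 25, 1, 4 and 14 in young mice of experiment 2. The 5 aged libraries of experiment 2 had none. Against a floor of 3 counts over that group the level was at least 31.1-fold lower in aged mice, and the edgeR adjusted p was 0.0477. That call was made again in 1 of the 7 fits with a library left out in which it could be tested, the one without young replicate 3. It was lost without young replicate 4 and without each of the aged libraries (adjusted p from 0.056 to 0.087), and could not be tested without young replicate 1, 2 or 5. In experiment 1 Snora68 fell by 3.35 ± 1.17 on the log2 scale (adjusted p = 0.0352), or by 6.03 without aged replicate 1, and the call was lost without young replicate 2 or 3, without aged replicate 2, 3 or 4 and in a fit of all 27 libraries (adjusted p = 0.101).

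**Figure D3:**
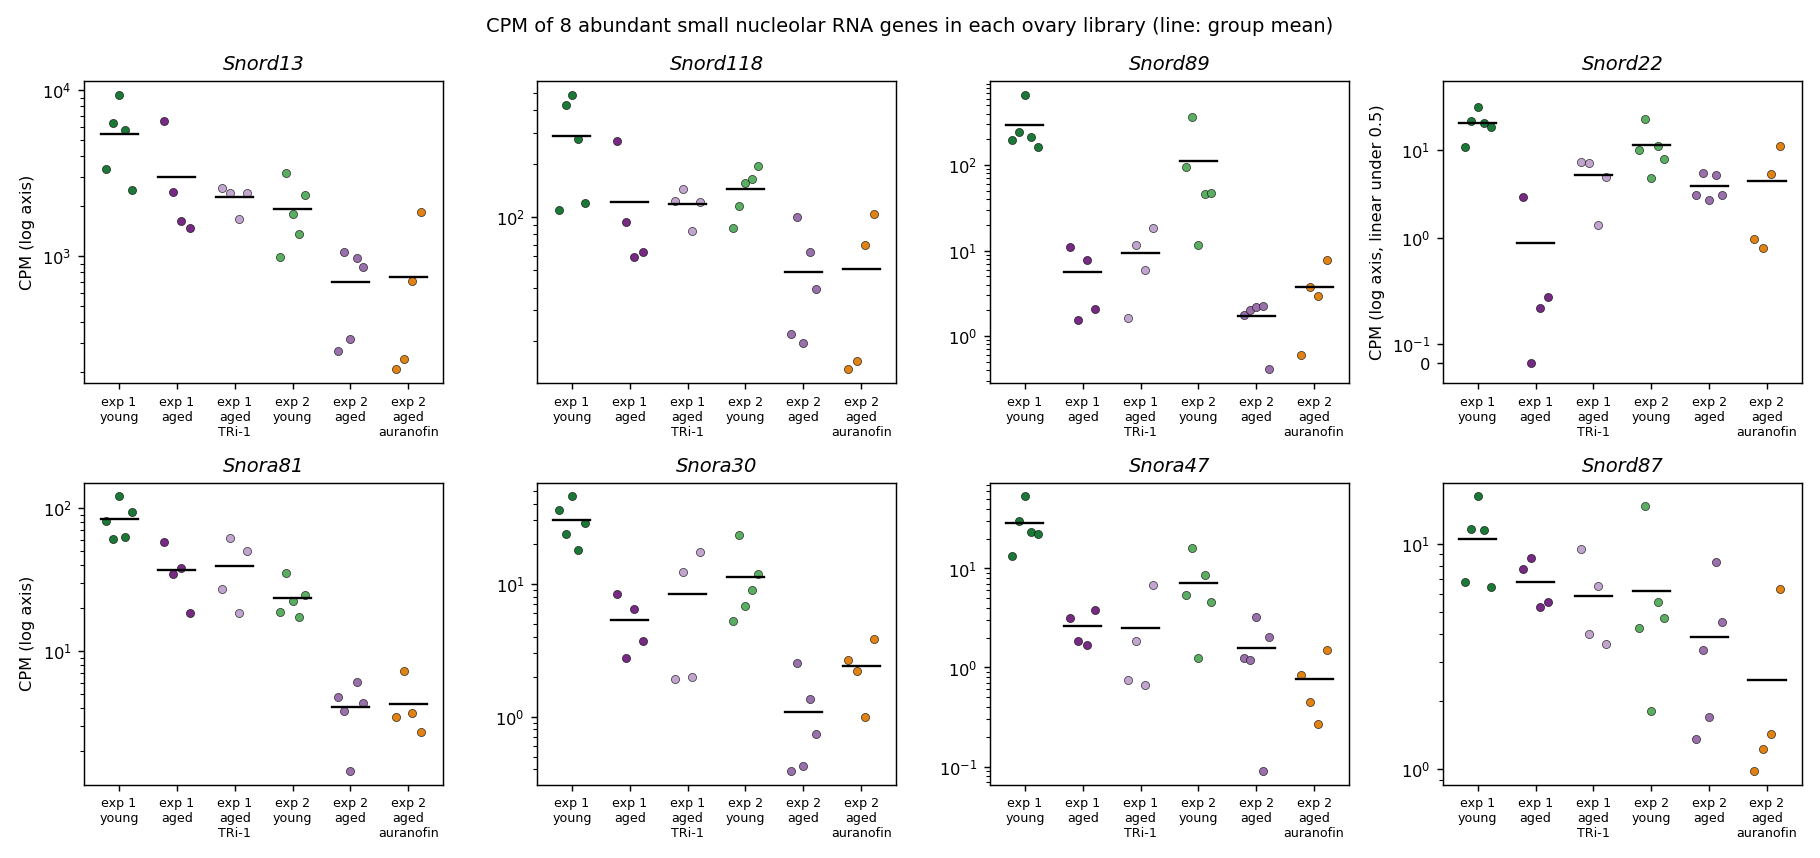
CPM of 8 abundant members in each library on log axes (linear under 0.5 for Snord22, which has a library at 0), with a line at each group mean. Snord89 and Snora30 separate young from aged libraries in both experiments, whereas Snord87 overlaps in both.

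Further members were lower in experiment 1 and not past the test in experiment 2. Snord22, within an exon of the non-coding host Snhg1, had CPM of 10.7, 21.4, 30.6, 20.1 and 17.98 in young and 2.95, 0, 0.281 and 0.335 in aged mice of experiment 1. The second experiment gave 9.87, 22.3, 4.77, 11.2 and 7.99 in young and 3.12, 5.41, 2.73, 5.23 and 3.12 in aged mice, and the groups overlapped. The log2 fold change was -4.58 ± 0.78 (adjusted p = 0.000348) and -1.53 ± 0.62 (adjusted p = 0.142), and the difference of 3.05 ± 1.03 did not pass the edgeR test (adjusted p = 0.233). In experiment 2 Snord22 passed with only the 2 groups compared in the fit (adjusted p = 0.0302). Snora47, in an intron of Zbed3, had CPM of 13.4, 30.3, 53.4, 23.5 and 22.5 in young and 3.20, 1.83, 1.68 and 3.77 in aged mice of experiment 1. The second experiment gave 5.44, 16.0, 1.25, 8.55 and 4.59 in young and 1.24, 1.18, 3.24, 0.0902 and 2.05 in aged mice. The lowest young library was replicate 3, as for Snord89. The changes were -3.44 ± 0.62 (adjusted p = 0.000523) and -2.20 ± 0.75 (adjusted p = 0.0765), the second past the threshold without young replicate 3 (adjusted p = 0.033), in a fit of all 27 libraries (0.0276) and by DESeq2 (0.0163).

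The lowest fitted changes of experiment 1 included members with hardly any count in aged mice. Snora74a, on chromosome 18, had 0, 5, 39, 10 and 14 counts in young and 1, 0, 0 and 0 in aged mice, a ratio of young over aged of 76.3 with a 95% counting interval of 13.2 to 3059. Snord100, in an exon of Rps12, had 9, 5, 7, 11 and 0 counts in young and 0, 0, 2 and 0 in aged mice, a ratio of 17.96 with an interval of 4.58 to 154.7, and its call was lost without aged replicate 1, 2 or 4 and in a fit of all 27 libraries (adjusted p = 0.0782). Snord100 could not be tested without young replicate 1, 3 or 4. Without aged replicate 3 its fitted log2 fold change was -5.99, against -3.83 with all libraries. Snora21, in an intron of Rpl23, fell by 4.44 ± 1.10 (adjusted p = 0.00526), with 30, 19, 40, 25 and 9 counts in young and 0, 6, 0 and 0 in aged mice. Without aged replicate 2, its only aged library with counts, the fitted value was -8.01. In experiment 2 Snora21 overlapped between groups and had a log2 fold change of -2.11 ± 1.09 (adjusted p = 0.275). Snora16a is annotated under 2 gene IDs that cover the same stretch of an Snhg12 exon on chromosome 4, so its reads may be split between them. Each ID is counted as a member of its own. ENSMUSG00000065097 fell by 3.71 ± 1.28 in experiment 1 (adjusted p = 0.034), a call that was lost without young replicate 2, 3 or 5 or aged replicate 2, 3 or 4. The other ID, ENSMUSG00000105911, was called lower in the joint fit (adjusted p = 0.0415). It had 45, 32, 12 and 42 counts in 4 libraries (young replicate 4 and TRi-1 replicate 4 of experiment 1, young replicate 3 and auranofin replicate 3 of experiment 2) and none elsewhere, and in those 4 the first ID had none. Its joint call was lost without any 1 of the aged untreated libraries and with replicate numbers as a block (adjusted p = 0.117), and could not be tested without young replicate 4 of experiment 1 or young replicate 3 of experiment 2.

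The other 9 members lower in experiment 1 were Snord8, Snord14a, Snord14e, Snord15a, Snord15b, Snora3, Snora7a, Snora26 and Snora73b, all within host genes, with log2 fold changes from -3.68 for Snora7a to -2.27 for Snord14e. Snord15a and Snord15b share the host Rps3 and are not independent of each other in position.

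For 4 further abundant C/D members the edgeR test was not passed in either experiment. Snord55 had a mean CPM of 23.3 ± 12.8 (SD, n = 5) in young and 20.0 ± 12.6 (n = 4) in aged mice of experiment 1 and 4.34 ± 2.15 and 3.43 ± 2.16 (n = 5 each) in experiment 2. Snord35a, within Rpl13a, had 8.71 ± 3.50 and 11.9 ± 9.06, and 3.36 ± 3.69 and 1.61 ± 1.42. Snord83b, within Rpl3, had 15.6 ± 10.6 and 7.23 ± 3.04, and 3.67 ± 1.36 and 2.91 ± 1.28. Snord87, within Snhg6, had 10.5 ± 4.05 and 6.79 ± 1.67, and 6.20 ± 4.97 and 3.85 ± 2.79. Their log2 fold changes ran from -1.12 to 0.44 in experiment 1 and from -1.08 to -0.34 in experiment 2, with edgeR adjusted p of 0.0872 or more. Snord83b passed in experiment 1 without young replicate 1 (-1.40, adjusted p = 0.0244). The sign for Snord55 in experiment 1 was positive without young replicate 3. The sign for Snord35a in experiment 1 was negative without aged replicate 1, whose 25.4 CPM was the highest of its group. Snora57, with no containing gene, had log2 fold changes of -1.08 ± 0.44 (adjusted p = 0.0654) and -1.58 ± 0.91 (adjusted p = 0.326) by edgeR. In experiment 1 it passed with the replicate block (adjusted p = 0.0456), by DESeq2 (0.0386), without young replicate 5 (0.0293) and without aged replicate 1 (0.0322). Its joint call (-1.33, adjusted p = 0.0484) was lost without any 1 of 14 of the 19 untreated libraries (adjusted p up to 0.0906) and without haemoglobin genes (0.0518).

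The 2 experiments share no library, so each gave its own measure of the age difference. Of 34 members tested in both, 28 were negative in both, 1 (Snord72) was positive in both and 5 had opposite signs. All 15 members lower in experiment 1 and tested in experiment 2 had negative values there, and 4 passed. Most members did so whatever their call, as 3 of 38 tested in experiment 2 were positive, against 48.0% of all genes. In experiment 1 it was 6 of 44, against 50.9%. No share of all genes with the same sign in both experiments is given here. Across these members, which share libraries within each experiment, Pearson's r of the log2 fold changes was 0.62 and Spearman's rho 0.64. The difference of the age effects between experiments passed the edgeR test for 0 of 53 members (0% of all genes), with an unadjusted p under 0.05 for 6 and 0 calls by DESeq2. The 3 members with the smallest p were Snord22, Snord70 with 3.91 ± 1.36 (adjusted p = 0.246) and Snora81 with -1.35 ± 0.52 (adjusted p = 0.286), as log2 values of experiment 2 minus experiment 1. The joint fit added Snora62, in Rpsa, at -3.49 ± 1.08 (adjusted p = 0.0132) and Snord50b, in Snhg5, at -3.40 ± 1.03 (adjusted p = 0.0114) among its lowest members, with 67 and 42 counts over the young mice of experiment 1. Without aged replicate 1 of experiment 1 the value for Snora62 was -5.91, and without aged replicate 2 that for Snord50b was -5.29.

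**Figure D4:**
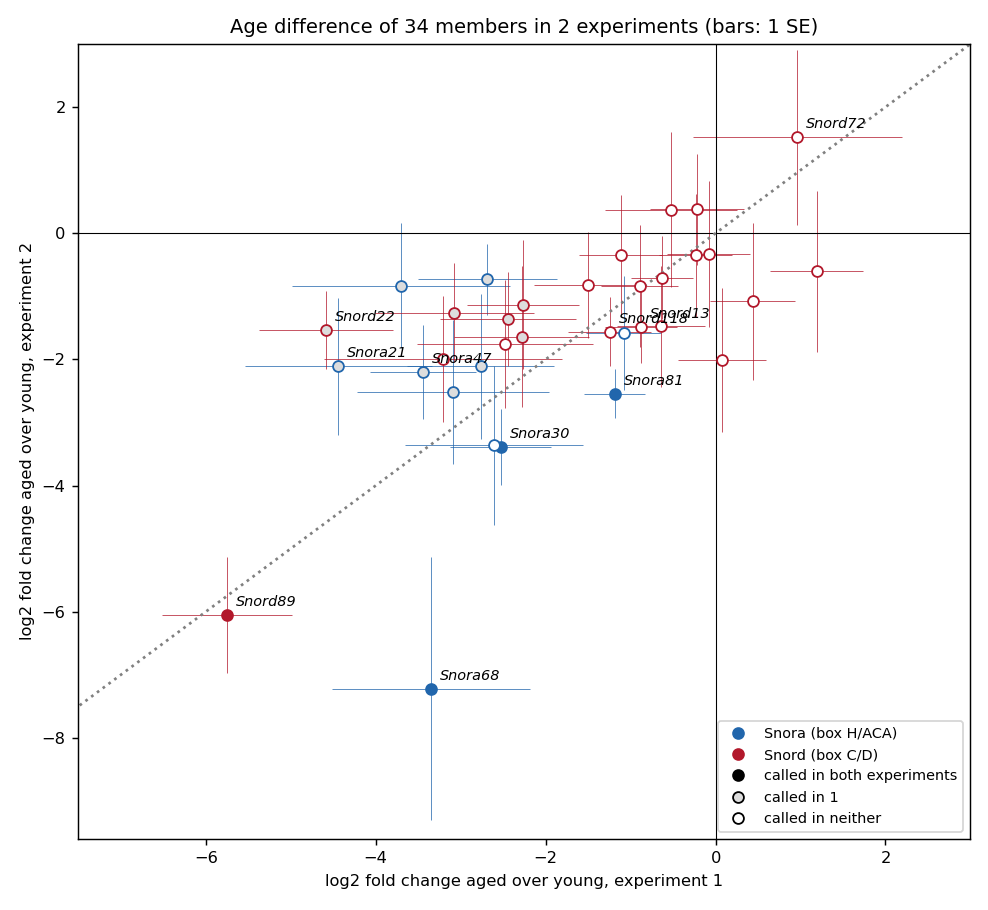
Log2 fold change of aged over young in experiment 1 (x axis) and experiment 2 (y axis) for the 34 members tested in both, with bars of 1 SE, Snora in blue and Snord in red. Most points, 28 of 34, lie in the lower left, negative in both, and Snord89, Snora68, Snora30 and Snora81 are called in both.

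Host genes were compared with their snoRNAs. Of the 69 members, 64 lay within another gene on the same strand, 22 of them in ribosomal protein genes and 16 in non-coding genes, 29 in introns and 35 over an annotated host exon, where a read cannot be assigned to snoRNA or host by position alone. Among the 39 pairs with both genes tested in experiment 1, the median log2 fold change was -2.27 for snoRNAs and -0.42 for hosts, and 9 snoRNAs lay above their host. Among the 34 pairs of experiment 2 the medians were -1.40 and -0.12, and 4 lay above. Across pairs Pearson's r was -0.20 and -0.23 and Spearman's rho -0.08 and 0.06, a description over genes that share libraries. Pearson's r was 0.23 and 0.09 over the exonic pairs and -0.38 and -0.54 over the intronic ones. Snora81 lay with a host that did not pass: Eif4a2, a translation initiation factor, had log2 fold changes of -0.31 ± 0.19 (adjusted p = 0.225) and -0.15 ± 0.22 (adjusted p = 0.75). Gm42715, around Snora30, had log2 fold changes of 0.31 ± 0.26 (adjusted p = 0.39) and -0.38 ± 0.40 (adjusted p = 0.64).

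Snord89 and its host went opposite ways in experiment 1. Gm15832 had CPM of 8.46, 3.36, 0.729, 8.79 and 9.21 in young and 39.3, 95.5, 149, and 54.8 in aged mice, with no overlap, and rose by 3.78 ± 0.54 on the log2 scale (adjusted p = 8.41e-05). Young replicate 3 had both the highest Snord89 and the lowest Gm15832. In experiment 2 Gm15832 had a log2 fold change of 1.70 ± 0.77 (adjusted p = 0.193), with overlapping groups. Zbed3, which encodes a protein of the maternal complex under the oocyte's surface, fell with Snora47 in experiment 1, by 2.74 ± 0.80 (adjusted p = 0.0142), from a mean CPM of 8.88 to 1.27. Young replicate 3, the highest for Snora47, was the lowest young library for Zbed3, at 0.365 CPM. In experiment 2 Zbed3 had a log2 fold change of -0.99 ± 0.60 (adjusted p = 0.354). Snhg1, host of Snord22, was called in the other experiment from its snoRNA. It had a log2 fold change of -0.38 ± 0.23 (adjusted p = 0.214) in experiment 1 and fell by 0.89 ± 0.20 (adjusted p = 0.00874) in experiment 2. The differences between experiments of these hosts did not pass the test.

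**Figure D5:**
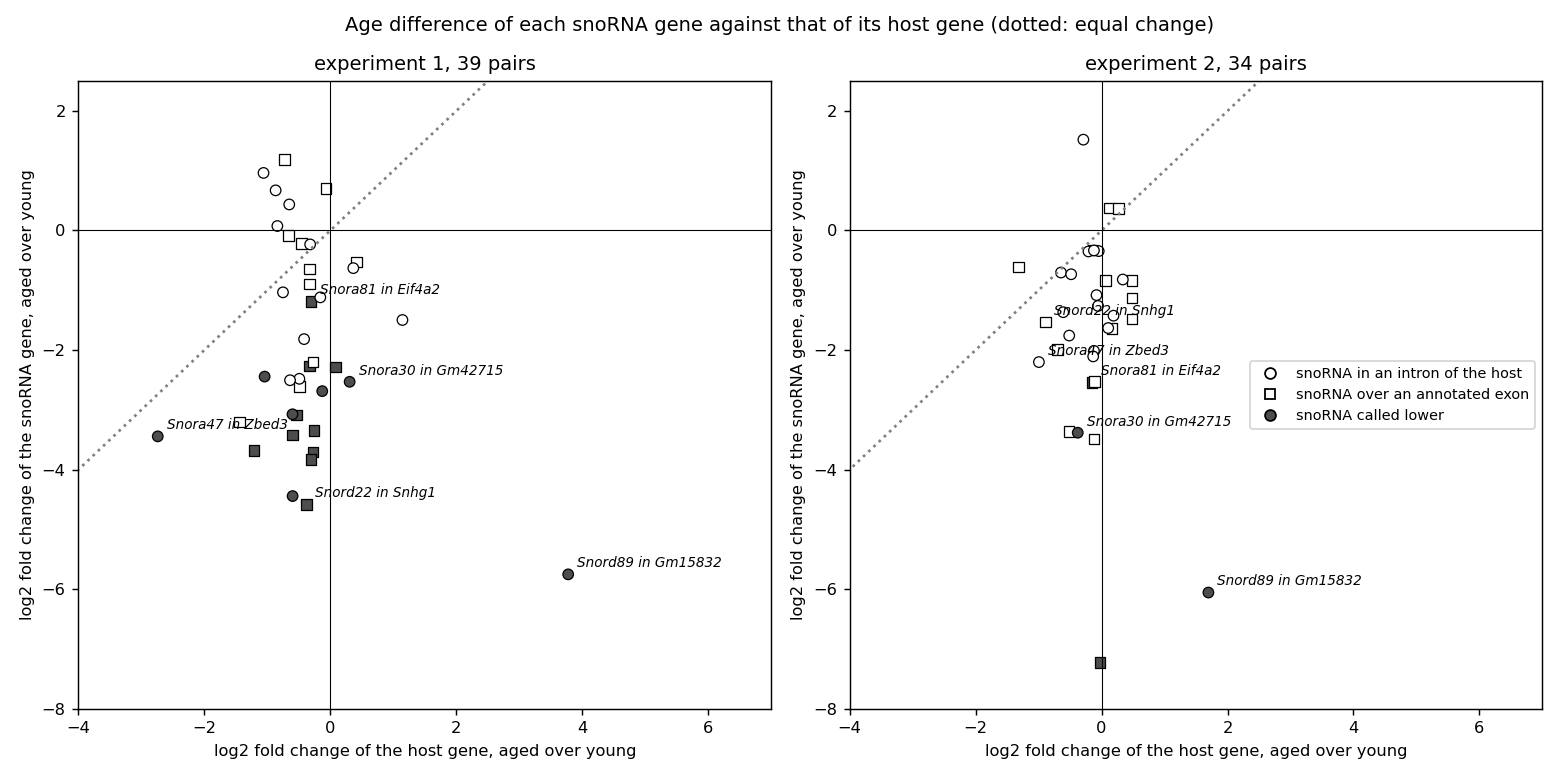
Log2 fold change of aged over young for each snoRNA gene (y axis) against its host gene (x axis) in experiment 1 and experiment 2, circles for snoRNAs in introns and squares for those over an annotated exon, filled where the snoRNA was called lower. Most points lie below the dotted line of equal change, and Snord89 with Gm15832 is at the lower right in both.

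Genes for proteins that bind, assemble and trim snoRNAs fell, rose or did not pass the test. Of the 4 C/D core proteins, Nop58 fell by 0.84 ± 0.16 (adjusted p = 0.000924) and Nop56 by 0.75 ± 0.22 (adjusted p = 0.015) in experiment 1, and 0 passed in experiment 2. Fibrillarin (Fbl) had log2 fold changes of -0.36 ± 0.20 (adjusted p = 0.179) and 0.56 ± 0.30 (adjusted p = 0.287). Of the 4 H/ACA core proteins, Nop10 fell in both, by 1.87 ± 0.22 (adjusted p = 1.84e-05) and 0.83 ± 0.19 (adjusted p = 0.0109), and 0 others passed. Dyskerin (Dkc1) had log2 fold changes of -0.53 ± 0.23 (adjusted p = 0.0784) and -0.42 ± 0.25 (adjusted p = 0.349).

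Of 14 assembly and transport genes, 4 were lower and 1 higher in experiment 1, and 1 lower and 0 higher in experiment 2. Tgs1, which caps independently transcribed snoRNAs with trimethylguanosine, fell in both, by 1.39 ± 0.19 (adjusted p = 4.92e-05) and 0.89 ± 0.23 (adjusted p = 0.0202). Naf1, an H/ACA assembly factor, rose by 0.98 ± 0.19 (adjusted p = 0.000895) in experiment 1. Of 13 tested genes of 3′ trimming, tailing and decay, 3 were lower and 1 higher in experiment 1 and 2 lower and 0 higher in experiment 2. Mtrex, the helicase of the nuclear exosome, fell by 2.02 ± 0.29 (adjusted p = 7.29e-05) and 0.95 ± 0.24 (adjusted p = 0.0183). Zcchc7, of the tailing complex that feeds RNAs to the exosome, fell by 1.61 ± 0.21 (adjusted p = 3.69e-05) and 1.04 ± 0.24 (adjusted p = 0.0117). Exosc4, an exosome subunit, rose by 0.81 ± 0.24 (adjusted p = 0.0168) in experiment 1.

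Of 16 genes of ribosomal RNA transcription and processing, 8 were lower and 2 higher in experiment 1, and 1 lower and 1 higher in experiment 2. Wdr12, a factor of the large subunit, fell by 1.06 ± 0.24 (adjusted p = 0.00258) in experiment 1, and Npm1, nucleophosmin, fell by 0.79 ± 0.17 (adjusted p = 0.00673) in experiment 2. Bop1, a partner of Wdr12, rose in both, by 0.94 ± 0.27 (adjusted p = 0.0124) and 0.99 ± 0.30 (adjusted p = 0.0426). Of 17 non-coding host genes tested of 20 listed, 2 were lower and 1 higher in experiment 1 and 2 lower and 0 higher in experiment 2. Snhg18 fell in both, by 1.72 ± 0.21 (adjusted p = 1.93e-05) and 0.80 ± 0.23 (adjusted p = 0.039), and Snhg20 rose by 1.06 ± 0.27 (adjusted p = 0.00666) in experiment 1. These counts stand against 34.9% of all genes called in experiment 1 and 10.5% in experiment 2.

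For TRi-1, no member passed the test. Of 44 members tested in aged mice, 0 were higher and 0 lower by edgeR, where 0.418% of 16028 genes were called, with an unadjusted p under 0.05 for 3 higher and 2 lower, and 0 calls by DESeq2. Treated and untreated libraries did not overlap for 0 members, against 4.54% of genes higher and 4.5% lower. The median log2 fold change was 0.18. Summed over all members, the CPM was 3283 ± 2522 (SD, n = 4) in untreated and 2549 ± 464 (n = 4) in treated mice, with Snord13 at 2566, 2396, 1684 and 2407 in the treated ones. Without aged replicate 1 the untreated mean was 2041, below the treated one. The fitted change of Snord89 was 0.73 ± 0.67 (adjusted p = 0.635), that of Snora81 0.08 ± 0.37 (adjusted p = 0.948) and that of Snora30 0.65 ± 0.59 (adjusted p = 0.6247). The smallest p belonged to Snord22, at 7.20, 7.10, 1.43 and 4.90 CPM in treated mice, with a change of 2.60 ± 0.77 (adjusted p = 0.115). Without untreated aged replicate 1, at 2.95 CPM, it was 4.48 with an adjusted p of 0.042, the single member call in that fit. Snora74a had 44 counts in treated and 1 in untreated mice, a ratio of untreated over treated of 0.0223 with a 95% counting interval of 0.000553 to 0.131 (adjusted p = 0.161). Snord7 had 0 counts in treated and 32 in untreated mice, at least 10.5-fold lower in treated mice (adjusted p = 0.148).

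For auranofin, no member passed the test either. Of 38 members tested, 0 were higher and 0 lower by edgeR, where 0.0184% of 16309 genes were called, with an unadjusted p under 0.05 for 1 higher and 3 lower and 0 calls by DESeq2. Libraries were without overlap for 0 members, against 2.01% of genes higher and 1.53% lower. The median log2 fold change was 0.03. The summed CPM of all members was 799 ± 420 (SD, n = 5) in untreated and 868 ± 876 (n = 4) in treated mice. Replicate 4 of the treated group had 2122, against 240, 291 and 819 in replicates 1 to 3, whose mean of 450.2 lay below the untreated one. In that library Snord13 had 1843 CPM against 209, 242 and 705, and Snord35a had 25.9 against 0.529, 0.194 and 0.450. It also had the highest macrophage marker sum of its group, 4951 against 531 to 1981, and the highest neutrophil marker sum, 5576 against 853 to 2352. Their part was not tested. The fitted change of Snord89 was 1.11 ± 0.84 (adjusted p = 0.833), that of Snora81 0.06 ± 0.39 (adjusted p = 0.987) and that of Snora30 1.14 ± 0.60 (adjusted p = 0.751).

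Snora21 had 0 counts in the 4 auranofin libraries and 31 over the 5 untreated aged ones, at least 8.62-fold lower (adjusted p = 0.498). Snora68 had 26 counts, all in auranofin replicate 4, against 0 in untreated aged mice (adjusted p = 0.604), and Snord70 had a log2 fold change of -2.51 ± 0.89 (adjusted p = 0.559). The difference of the treatment effects, auranofin minus TRi-1, passed for 0 of 53 members by edgeR, where 0.0172% of genes were called, with an unadjusted p under 0.05 for 3 higher and 5 lower. The smallest p belonged to Snora21, with a difference of -7.49 ± 2.04 (adjusted p = 0.203), Snord100 and Snord92. DESeq2 called 1, Snora21. The 2 drugs were given in different experiments, and a p that misses the threshold does not show that they act alike.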

How the data were processed

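Ovary RNA of 27 libraries was read by 3′ tag sequencing (Lexogen kit per the labels' protocols). The authors deposited raw counts, whole numbers for each gene, in 1 table. RSEM 1.2.3, DESeq2 and mm10 appear in the submitters' processing notes without roles. Annotation, counting strand and handling of reads with several matches are not given in the sources used here. Symbols, positions, hosts and sequences came from GENCODE M21, no flanking sequence was used, and some sequences and host genes are not reported here. A host is the same-strand gene containing the snoRNA with the most counts. The labels number replicates without saying that each is a separate mouse, so p-values measure only the spread between these samples, which may be technical.

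Tests across genes used edgeR 4.0.16 under R 4.3.3 (TMM, filterByExpr, quasi-likelihood F test, Benjamini-Hochberg over all genes tested, threshold 0.05), with 1 mean per group. Each experiment was fitted with its own 3 groups, and joint and difference tests used all 27 libraries. SE is the log2 fold change over the square root of F. Where a group had no count, the fold is a bound with 3 counts put in for the group, and where it had 1 to 3, the ratio has an exact 95% interval. Both cover counting error only. The tests were checked on simulated data. The members and lists were chosen with earlier results of these data known. Named were the 12 members of highest mean CPM, up to 6 called per comparison and direction by size of change or, where under 5 were called, the 3 of smallest p, and their hosts. Genes of the fixed lists were named from the 3 of smallest p in each age comparison, with Fbl and Dkc1 as enzymes and Exosc4. Alternatives were DESeq2 1.42.0, other scaling and filters, a replicate block, other sets of libraries and, added after seeing the data, no haemoglobin genes, group sums without each library, and all settings for members named in any age comparison.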

Additional observations from a re-analysis of the deposited data

Results flagged for a closer look

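The highest or lowest library stood apart from the others of its group by Dixon's 95% criterion in 23 of 117 sets of values. The criterion assumes normally spread values. Some sets are mostly zeros and the sets share libraries, so the count is not set against chance. In experiment 1 young replicate 3 was the highest for Snord89 (665 CPM), Snora74a (7.11) and the summed Snora CPM (345.7). Aged replicate 1 of experiment 1 was the highest for Snord118 (269), Snord22 (2.95), Snord35a (25.4), Snora74a (0.123) and Snora68 (1.84), aged replicate 2 for Snora21 (0.611) and aged replicate 3 for Snord100 (0.187). TRi-1 replicate 3 had the lowest summed CPM of all members in its group (1860). In experiment 2 young replicate 2 was the highest for Snord89 (365), Snord87 (14.7), Snora21 (7.30) and the summed Snora CPM (128). Aged replicate 5 was the lowest for Snord89 (0.411) and the highest for Snord100 (0.657). Auranofin replicate 4 was the highest for Snord55 (20.7), Snord35a (25.9), Snord87 (6.30), Snora57 (11.9), Snora74a (1.66) and Snora68 (2.15). Several of these members rest on few counts.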

How the results depend on the processing

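Counts of calls moved with several settings. With only genes of at least 5 mean CPM, 7 members were lower in experiment 1 and 8 in the joint fit, as fewer were tested. DESeq2 gave 29 lower of 68 tested in experiment 1 and 9 of 65 in experiment 2. Leaving out each library in turn gave 9 to 28 lower members in experiment 1, 3 to 5 in experiment 2 and 23 to 31 in the joint fit. For TRi-1, 0 to 1 member was higher, and for the difference of treatments 0 to 1 was lower, with 1 by DESeq2. The count of all genes called for TRi-1 was 172 with the 5 CPM filter, 1 with the replicate block, 0 with only the groups compared, 2 with all 27 libraries, 591 by DESeq2 and 0 to 164 with a library left out. For auranofin it was 11 with the replicate block, 10 with all 27 libraries and 67 by DESeq2. For the difference of age effects it was 1 with genes of at least 50 counts, 6 with the 5 CPM filter, 179 by DESeq2, 1 without haemoglobin genes and 0 to 19 with a library left out. For the difference of treatments it was 5, 97 and 2 to 10 with the 5 CPM filter, DESeq2 and a library left out. The causes were not tested. Without Snord13 the summed member CPM was 975 and 283 in young and aged mice of experiment 1, 286 with TRi-1, and 402 and 104 in young and aged mice of experiment 2.

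Signs turned for Snord35a in experiment 1 (-0.049 with the replicate block, -0.23 to 0.61 with a library left out), in the joint fit (-0.69 to 0.056), Snord55 (-0.74 to 0.13), for TRi-1 Snora68 (-0.63 to 2.85) and Snora81 (-0.19 to 0.36), and for auranofin Snora81 (-0.31 to 0.24) and Snora68 (0.00 to 6.01, the first without replicate 4, when both groups were empty). With each group's mean taken off, same-numbered libraries of different groups correlated at -0.15 to 0.07 in experiment 1 and -0.25 to 0.43 in experiment 2. Libraries with different numbers gave -0.21 to 0.28 and -0.40 to 0.43. These ranges cannot tell whether the numbers pair the mice. With the replicate block the age calls of Snora81 (adjusted p = 0.062), Snora74a (0.064) and Snora16a (0.2) in experiment 1 of Snora68 (0.069) in experiment 2 and of both Snora16a IDs in the joint fit (0.079 and 0.12) were not past the threshold, and Snora57 (0.0456) and Snora62 (0.044) in experiment 1 and Snord13 (0.0492) in experiment 2 were. Low counts limit the tests of members. In the main edgeR fits 25 of 69 could not be tested in experiment 1, and 16 were never tested. All 69 entered the alternative fit of all genes with at least 50 counts.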
